A study of Homo sapiens with 16 samples.

Results

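The genes described here are 5 transcription factors linked to the basal type of bladder cancer, namely TP63, BNC1, ZBED2, KLF7 and SOX15. They were chosen by name, and each name matched 1 row of the deposited tables, so that the group is 5 of 58721 genes. RNA was measured by 3′ RNA sequencing, which reads the ends of transcripts, in 16 libraries from cultured bladder cancer cells, 8 of RT112, which represents luminal papillary tumours, and 8 of SCaBER, which represents basal/squamous tumours. Each line was transfected with 10 nM (per the labels) of siControl.1, siControl.2, siFOXA1.1 or siFOXA1.2, a pair of control small interfering RNAs (siRNAs) and a pair directed against FOXA1. Each siRNA had 2 libraries per line, numbered as batch replicates 1 and 2, and the p-values below measure only the spread between these libraries, which may be technical. RT112 was grown in RPMI and SCaBER in DMEM, both with fetal bovine serum, so line and medium cannot be told apart, and each tumour type is represented by 1 line.

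Luminal bladder tumours keep features of differentiated urothelium and depend on factors such as FOXA1, a forkhead protein that binds enhancers in closed chromatin. Basal tumours resemble the lowest layer of stratified epithelia, whose identity is set by p63, the product of TP63. TP63 has alternative starts that give long (TA) and short (ΔN) proteins, and counts per gene do not separate them. BNC1 encodes basonuclin 1, a zinc finger protein of basal keratinocytes. ZBED2 encodes a BED-type zinc finger factor known from keratinocytes and pancreatic cancer, where it competes with IRF1 for interferon-responsive DNA. KLF7 is a Krüppel-like factor and SOX15 an HMG-box factor of the SOX family.

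In the GRCh38.p14 annotation, TP63 lies on chr3:189596746-189897276, ZBED2 on chr3:111592900-111595346, BNC1 on chr15:83255884-83284664, KLF7 on chr2:207074137-207173851 and SOX15 on chr17:7588178-7590094. RefSeq promoter entries of 300 bases, covering the start of transcription, were matched by symbol for 4 of the 5 genes. The entries of TP63, BNC1 (the upstream of its 2) and ZBED2 are printed because TP63 changed under an siRNA against a forkhead factor while BNC1 and ZBED2 differed between the lines. The TP63 entry lies inside the span of the gene and was the only 1 for this gene, so other starts of TP63 are not shown. Whether it serves the long or the short form was not determined, and the data do not show which start was used. Its sequence can therefore not be assigned to the TP63 transcripts that were counted. Capitals mark matches to the forkhead words TGTTTAC or TGTTTAT or TGTTTGC or TGTTTGT on either strand.
TP63, chr3:189631139-189631438, plus strand: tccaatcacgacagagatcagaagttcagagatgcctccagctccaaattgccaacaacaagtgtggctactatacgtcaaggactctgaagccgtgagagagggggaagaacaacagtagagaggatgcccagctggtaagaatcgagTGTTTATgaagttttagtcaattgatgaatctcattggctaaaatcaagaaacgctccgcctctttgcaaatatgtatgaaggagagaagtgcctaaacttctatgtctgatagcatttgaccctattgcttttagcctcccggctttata
BNC1, chr15:83284615-83284914, minus strand: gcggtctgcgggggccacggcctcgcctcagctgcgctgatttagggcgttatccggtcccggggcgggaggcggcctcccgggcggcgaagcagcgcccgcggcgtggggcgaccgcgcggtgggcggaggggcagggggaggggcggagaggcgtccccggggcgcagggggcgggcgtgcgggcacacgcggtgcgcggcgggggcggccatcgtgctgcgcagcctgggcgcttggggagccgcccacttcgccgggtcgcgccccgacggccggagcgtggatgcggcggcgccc
ZBED2, chr3:111595297-111595596, minus strand: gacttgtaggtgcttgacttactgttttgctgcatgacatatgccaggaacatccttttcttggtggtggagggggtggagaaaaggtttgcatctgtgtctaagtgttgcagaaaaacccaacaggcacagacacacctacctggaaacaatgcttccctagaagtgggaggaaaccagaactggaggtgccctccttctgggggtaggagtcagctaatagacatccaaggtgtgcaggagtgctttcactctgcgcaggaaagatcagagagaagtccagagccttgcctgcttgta

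The TP63 entry held 1 forkhead word, TGTTTAT, beginning at base 150 of the printed run, and the other 2 printed entries held 0. Such a word was present in 15.1% of 34796 promoters of this length, so the match describes the sequence and does not mark a binding site. The printed BNC1 entry held 50 CG dinucleotides, more than 98.7% of those promoters, while the ZBED2 entry held 1 and the TP63 entry 7, against a median of 14. None of the 3 contained the AP-1 word TGANTCA, which was searched on both strands and found in 7.73% of promoters. Of the 4 KLF7 entries, 1 contained a forkhead word.

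Library totals ranged from 4528513 to 7604581 counts, and 3 counts, taken as the limit of detection, corresponded to 0.394 to 0.662 CPM, the count scaled to the library total. FOXA1 itself, the target, was at 35.0 and 29.4 CPM under siControl.1 in RT112, 18.2 and 28.4 under siControl.2, 1.32 and 3.24 under siFOXA1.1, and 9.18 and 16.0 under siFOXA1.2. The fall was called for siFOXA1.1 (log2 difference from both controls −3.44, adjusted p = 2.19e-05) and not for siFOXA1.2 (−1.10, adjusted p = 0.205). In SCaBER FOXA1 never exceeded 2.43 CPM. It was at 0.499 and 0.623 CPM under siControl.1, 2.43 and 1.99 under siControl.2, 0 and 0.434 under siFOXA1.1, and 0 and 0.951 under siFOXA1.2. With 0 to 15 counts per library, it was too low for the knock-down in SCaBER to be judged. The labels of the lines were checked with markers. The 6 basal markers summed to 214 to 506 CPM in RT112 and 1861 to 3280 CPM in SCaBER, with DSG3 at 0 in every RT112 library and KRT16 the exception, at a median of 52.4 CPM in RT112 and 28.2 in SCaBER. The 8 luminal markers summed to 630 to 1525 CPM in RT112 and 99.99 to 189.5 CPM in SCaBER, but KRT20 was at or near 0 and UPK3A at 0 in both lines. Of the 8 markers of other cell types, PTPRC, CD3E and DCN had 0 counts in all libraries. Of the others, the fibroblast marker COL1A1 ranged from 7.505 to 56.5 CPM over the RT112 libraries and from 1.54 to 20.4 over those of SCaBER, the endothelial marker PECAM1 reached 11.2 CPM in RT112, and CD68, PDGFRB and VWF reached at most 9, 8 and 1 counts. In bulk RNA, fewer cells carrying a transcript and less transcript per cell cannot be told apart.

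The 2 lines differed clearly in 2 of the 5 factors, BNC1 and SOX15, less firmly in ZBED2, and not detectably in KLF7 and TP63. All 3 called members were lower in RT112, in a comparison of the 4 siControl libraries of each line in which 43.4% of the 12309 genes tested were called and 22.2% were lower (edgeR quasi-likelihood test, Benjamini-Hochberg adjusted p under 0.05). The 4 libraries per line did not overlap for BNC1 and SOX15, as for 41.7% of genes. Levels of different genes were compared on the TPM scale, which divides counts by gene length. In SCaBER the order of mean TPM levels under the controls was SOX15 (129 ± 23.5, SD, n = 4), ZBED2 (43.9 ± 29.8), BNC1 (11.1 ± 4.77), KLF7 (9.03 ± 2.47) and TP63 (5.54 ± 1.19). Only SOX15 stood apart there, since the ranges of all other neighbours in the order overlapped. In RT112 the order of mean TPM levels was ZBED2 (12.0 ± 8.43), KLF7 (6.88 ± 1.19), SOX15 (6.85 ± 5.91), TP63 (3.51 ± 1.499) and BNC1 (0). Each neighbouring pair overlapped except TP63 and BNC1. A 3′ protocol does not sample transcripts in proportion to their length, so TPM values understate long transcripts relative to short ones, and the order holds for this scale only.

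**Figure D1:**
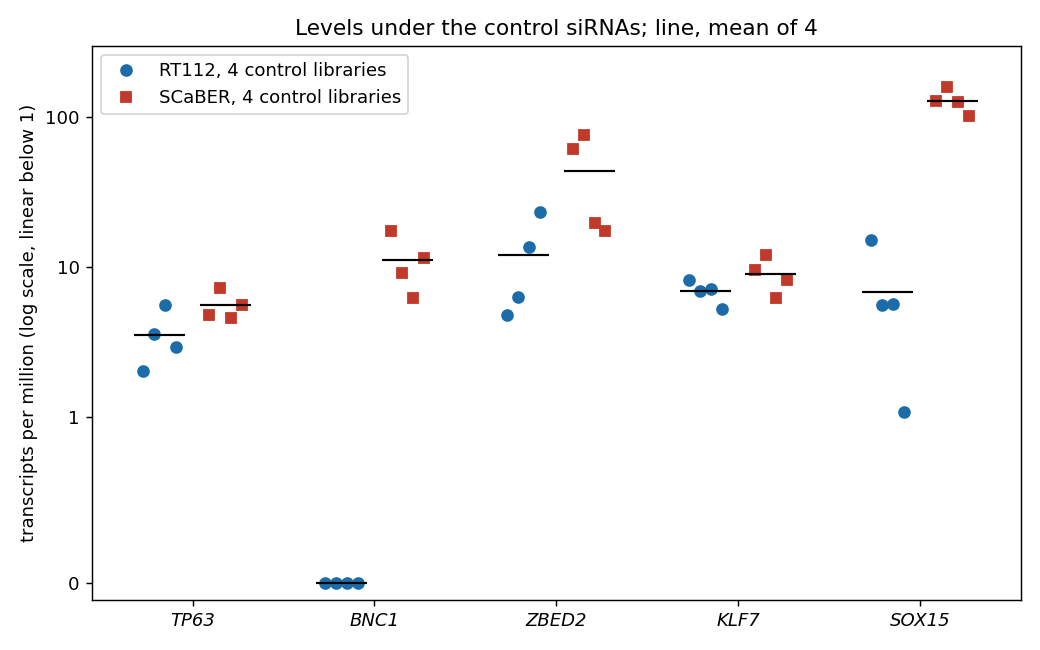
TPM (vertical axis, log scale, linear below 1) of each factor in the 4 control libraries of RT112 (blue circles) and SCaBER (red squares), with the mean as a line. BNC1 was at 0 in all RT112 libraries, SOX15 was separated between the lines (1.08 to 15.1 against 102 to 159), and the values of ZBED2, KLF7 and TP63 overlapped.

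BNC1 had 0 counts in every one of the 8 RT112 libraries. In SCaBER it was at 33.6 and 16.5 CPM under siControl.1, 11.8 and 21.4 under siControl.2, 16.7 and 25.02 under siFOXA1.1, and 24.99 and 25.03 under siFOXA1.2. Its mean control level in SCaBER was thus at least 50.1-fold higher than in RT112, taking 3 counts per library as the limit for RT112. Within SCaBER neighbouring groups in the order of the means overlapped, but both siFOXA1.2 libraries were above both siControl.2 libraries. The log2 difference from both controls was 0.06 under siFOXA1.1 (95% interval −0.75 to 0.87, adjusted p = 0.952) and 0.31 under siFOXA1.2 (−0.49 to 1.12, adjusted p = 0.999). An antisense gene, BNC1-AS1, overlaps BNC1 and was not matched by name in the tables.

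SOX15 was the most abundant of the 5 in SCaBER, at 80.0 and 92.4 CPM under siControl.1, 77.6 and 60.9 under siControl.2, 92.99 and 79.5 under siFOXA1.1, and 59.4 and 49.6 under siFOXA1.2. In RT112 the corresponding values were 12.2 and 4.53, 4.26 and 0.834, 3.08 and 3.09, and 4.95 and 3.69 CPM, all below the lowest SCaBER library. The difference between the lines under the controls was −3.80 on the log2 scale (SE 0.48, adjusted p = 1.46e-05), or 13.9-fold. As a ratio of mean CPM it was −3.26 between libraries numbered replicate 1 and −4.84 between those numbered replicate 2. Under siFOXA1.2 in SCaBER both libraries were below all 4 controls, as they were, in either direction, for 15.6% of genes. That difference of −0.48 (95% interval −0.97 to −0.00) was not called (adjusted p = 0.935). In RT112 the 4 control libraries ranged from 0.834 to 12.2 CPM, and the 95% interval of the difference under siFOXA1.1 ran from −2.16 to 1.26. MPDU1, a gene that overlaps SOX15 in the annotation, had 39 to 128 counts in all libraries.

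KLF7 was the most even member. In RT112 it was at 39.6 and 34.0 CPM under siControl.1, 32.5 and 24.5 under siControl.2, 39.2 and 31.7 under siFOXA1.1, and 52.02 and 34.4 under siFOXA1.2. In SCaBER the values were 35.6 and 42.2, 22.9 and 29.6, 30.7 and 41.2, and 28.7 and 30.1 CPM. The lines differed by 0.02 on the log2 scale under the controls (95% interval −0.50 to 0.54, adjusted p = 0.957). In this edgeR fit the interval leaves out differences beyond 1.45-fold in either direction. That bound depends on the scale, since limma on log2(TPM + 1) gave −0.33 (SE 0.24), also not called. Under the siRNAs against FOXA1 the log2 differences lay between −0.10 and 0.43, and none was called. KLF7 was higher under siControl.1 than under siControl.2 in both lines without overlap, by 0.43 in RT112 (adjusted p = 0.591) and 0.56 in SCaBER (adjusted p = 0.843), neither called. In either direction, the control siRNAs did not overlap for 46.7% of genes in RT112 and 38.3% in SCaBER.

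TP63 was the only member called under an siRNA against FOXA1 when both controls were used, in RT112 under siFOXA1.1. There it was at 7.89 and 14.0 CPM under siControl.1, 20.4 and 10.8 under siControl.2, 1.90 and 2.21 under siFOXA1.1, and 13.4 and 21.4 under siFOXA1.2. The 2 siFOXA1.1 libraries, with 13 and 15 counts, were below all others, as the siFOXA1.1 and control libraries did not overlap for 46.7% of genes, whereas those of siFOXA1.2 lay among or above the controls. Against both controls TP63 fell by 2.53 on the log2 scale under siFOXA1.1 (SE 0.53, 95% interval −3.63 to −1.42, adjusted p = 0.00116), or 5.76-fold. It was 1 called member of the 4 tested, in a comparison in which 32.6% of genes were called. The ratio of CPM to the mean of both controls was −2.89 on the log2 scale within batch 1 and −2.49 within batch 2. Under siFOXA1.2 the difference from the controls was 0.43 (−0.47 to 1.33, adjusted p = 0.792), where 2.04% of genes and 0 of 4 members were called, 0 members also at an unadjusted p under 0.05 and with DESeq2. There 0 of 4 members, and 20.3% of genes, were without overlap. The siRNAs themselves differed by −2.96 (SE 0.57, adjusted p = 0.000756), again for 1 of 4 members against 28.1% of genes. FOXA1 differed between the same siRNAs by −2.34 (adjusted p = 0.00181). The share of counts from mitochondrial genes was 27.0% ± 1.77 (SD, n = 2) under siFOXA1.1 in RT112 and 18.5 to 20.7% on average under the other siRNAs, and its part in the TP63 result was not tested.

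**Figure D2:**
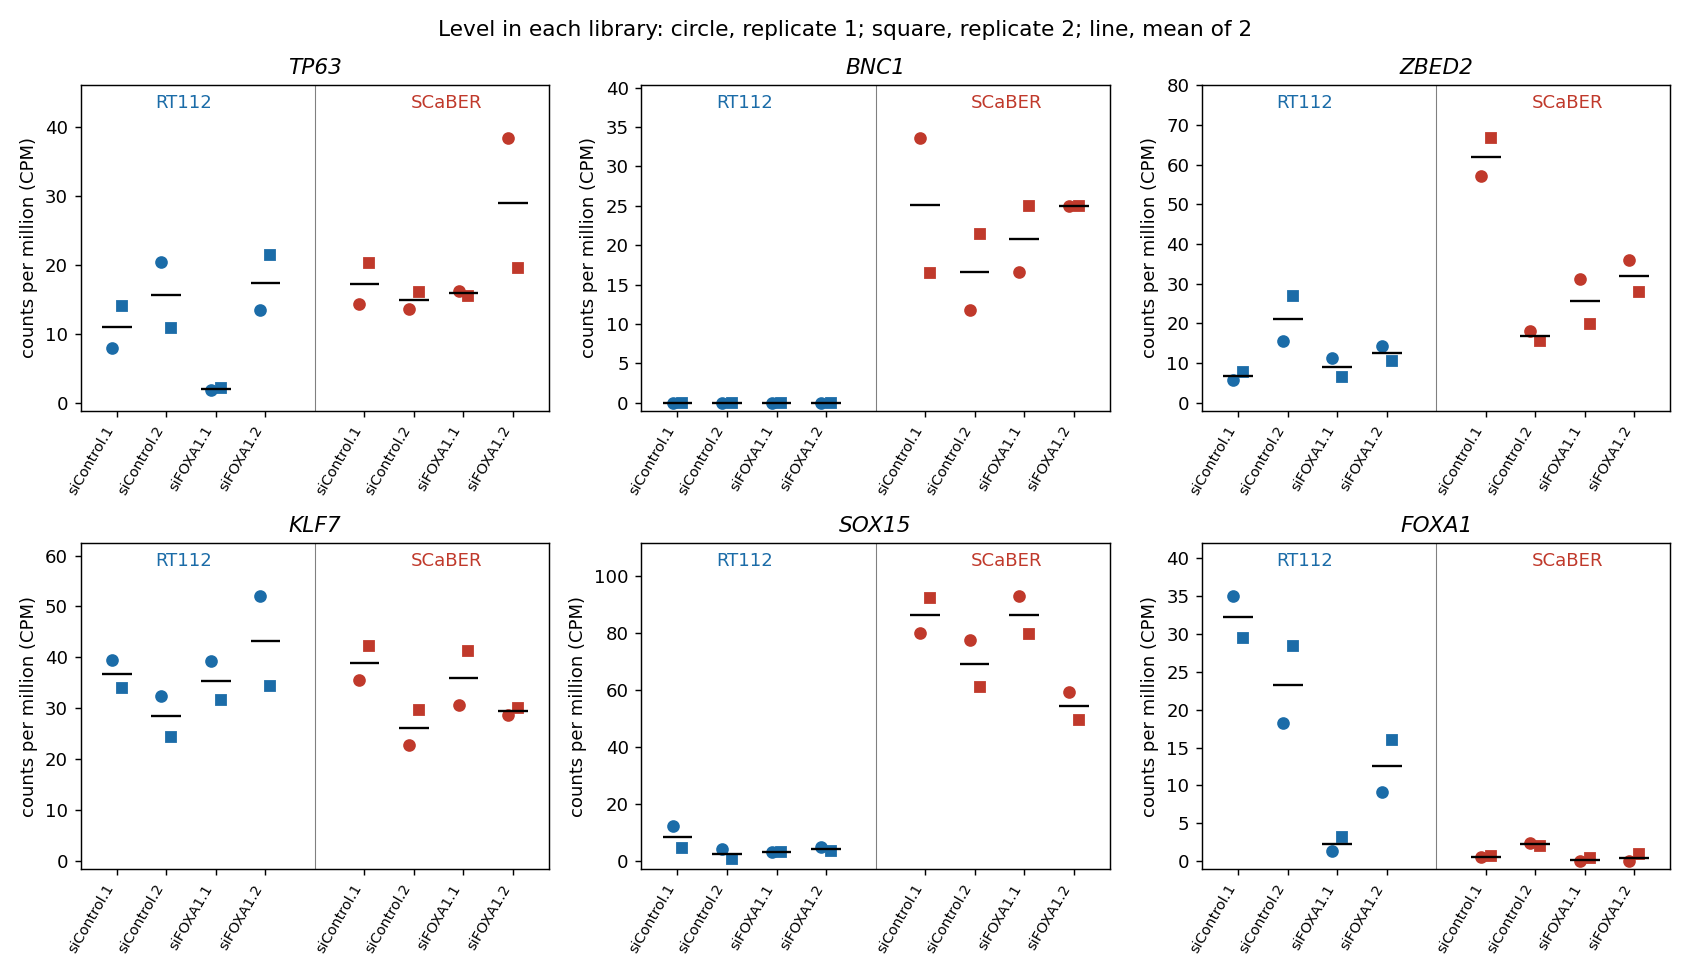
CPM (vertical axis, starting at 0) of the 5 factors and of FOXA1 in each library, by siRNA, with RT112 in blue and SCaBER in red. Circles are replicate 1, squares replicate 2 and lines the mean of 2. TP63 was at 1.90 and 2.21 CPM under siFOXA1.1 in RT112, and ZBED2 was highest under siControl.1 in SCaBER (57.2 and 66.7 CPM) and lowest under the same siRNA in RT112 (5.79 and 7.70 CPM).

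In SCaBER TP63 was at 14.3 and 20.3 CPM under siControl.1, 13.6 and 16.1 under siControl.2, 16.3 and 15.5 under siFOXA1.1, and 38.4 and 19.5 under siFOXA1.2. The siFOXA1.1 libraries lay within the range of the controls, and 1 of the 2 siFOXA1.2 libraries lay above every other library. The log2 difference under siFOXA1.1 was 0.02 (95% interval −0.78 to 0.82, adjusted p = 0.983), and 0 of 5 members were called in a comparison that called 9.26% of genes (0 members at an unadjusted p under 0.05 and 0 without overlap, against 30.2% of genes). Under siFOXA1.2 it was 0.88 (0.11 to 1.64, adjusted p = 0.848), with 0 of 5 members and 0.042% of genes called. TP63 and SOX15, 2 of the 5, had an unadjusted p under 0.05 there. The siRNAs against FOXA1 differed by −0.86 for TP63 (adjusted p = 0.312), in a contrast that called 0 of 5 members, 1 at an unadjusted p under 0.05, and 4.85% of genes. The difference between the lines in the response to siFOXA1.1 was −2.56 for TP63 (SE 0.63, adjusted p = 0.0320), the only 1 of 4 members called, beside 3.14% of 13701 genes. The call was lost with limma on log2(TPM + 1), where the value was −1.56 (adjusted p = 0.102), and without any 1 of 7 of the 16 libraries (−2.70 to −2.30, adjusted p 0.0537 to 0.117). In RT112 these were siControl.1 replicate 2, siControl.2 replicate 1 and both of siFOXA1.1, and in SCaBER both of siControl.2 and siFOXA1.1 replicate 1. With siFOXA1.2 the interaction called 0 of 4 members and 0.0438% of genes. When both siRNAs against FOXA1 were pooled, 0 members were called in either line, 0 also at an unadjusted p under 0.05 (0.108% of genes in RT112 and 0.0084% in SCaBER). Under the controls the lines differed in TP63 by −0.26 (95% interval −0.97 to 0.44, adjusted p = 0.558). Over the 8 groups of TP63 levels, only the step to the lowest, RT112 siFOXA1.1 (2.06 ± 0.216 CPM), separated neighbours, and the other 6 neighbouring pairs overlapped.

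**Figure D3:**
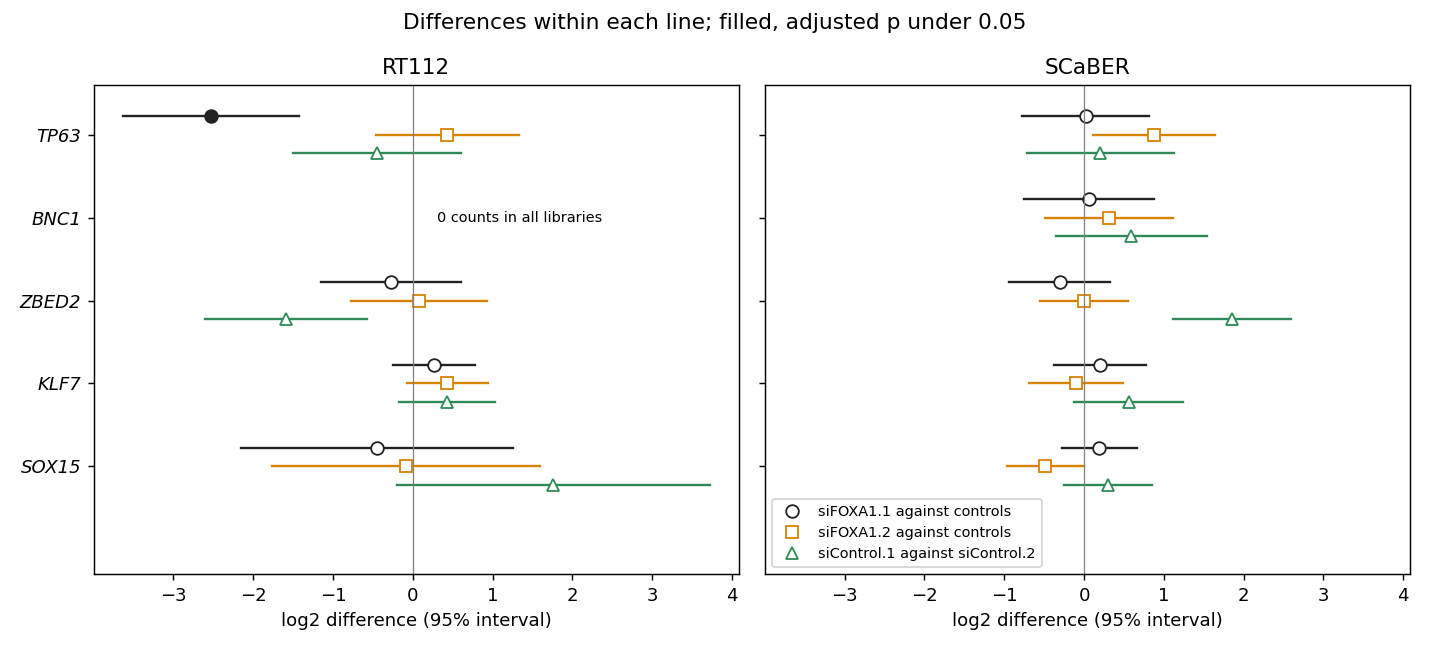
Log2 differences with 95% intervals (horizontal axis) of the factors within RT112 (left) and SCaBER (right) for siFOXA1.1 and siFOXA1.2 against both controls and for siControl.1 against siControl.2. Filled symbols mark an adjusted p under 0.05, which TP63 alone reached (−2.53 under siFOXA1.1 in RT112), while ZBED2 differed between the controls by −1.58 in RT112 and 1.85 in SCaBER.

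Genes known to be controlled by p63 in basal epithelia, a list of 32 that includes basal keratins, laminins, integrins and desmosome proteins, moved in both directions under siFOXA1.1. In RT112, 30 were tested and 13 were called, 8 lower and 5 higher, or 43.3% against 32.6% of all genes, with a median log2 difference of −0.15 against −0.01. The largest falls among the called genes were those of DSC3, a desmosomal cadherin (−1.90, SE 0.35, adjusted p = 0.000409), FERMT1, an integrin activator (−1.89, SE 0.14), and DSP, which encodes desmoplakin (−1.58, SE 0.12). DSC3 was at 3.66 and 4.86 CPM under siFOXA1.1 and at 12.4 to 23.8 CPM under the controls. Among those that rose were ZNF750 (1.53), BMP7 (1.303), KRT5 (0.79) and ITGA3 (0.76). Desmosome genes were among those that fell, and a keratin and an integrin were among those that rose.

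Under siFOXA1.2 in RT112, where TP63 did not fall, 5 of the 30 p63-linked genes were called, beside 2.04% of all genes. Between the control siRNAs in this line 3 of the 30 were called, beside 2.36% of all genes. They were JAG1 (−1.28), NECTIN1 (−0.77) and ITGA6 (−0.62), all lower under siControl.1. Under siFOXA1.2 DSC3 rose by 1.23 (adjusted p = 0.0328), to 37.9 and 43.6 CPM, CDH3 by 0.70, ITGA6 by 0.54 and FERMT1 by 0.52. KRT17 fell by 0.79. Only 0 to 2 of the list were called with limma or without any 1 library of either control or of siFOXA1.2, and without siFOXA1.2 replicate 2 none was. The siRNAs differed directly in DSC3 (−3.13) and FERMT1 (−2.41), which both were lower under siFOXA1.1. In SCaBER siFOXA1.1 called 6 of 30, beside 9.26% of all genes, among them KRT17 (1.40), LAMB3 (1.28), DSG3 (1.12) and ITGA3 (1.01) higher and JAG2, a Notch ligand, lower (−1.31), and 3 were called without siControl.2 replicate 1. TP63 was at control level in those libraries. The response to siFOXA1.1 differed between the lines for 7 of the 32 genes, beside 3.14% of all genes, among them DSC3 (−2.02), FERMT1 (−1.75) and DSP (−1.65), each with an adjusted p of 0.00446 or less. Without RT112 siFOXA1.1 replicate 2 the count was 4.

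**Figure D4:**
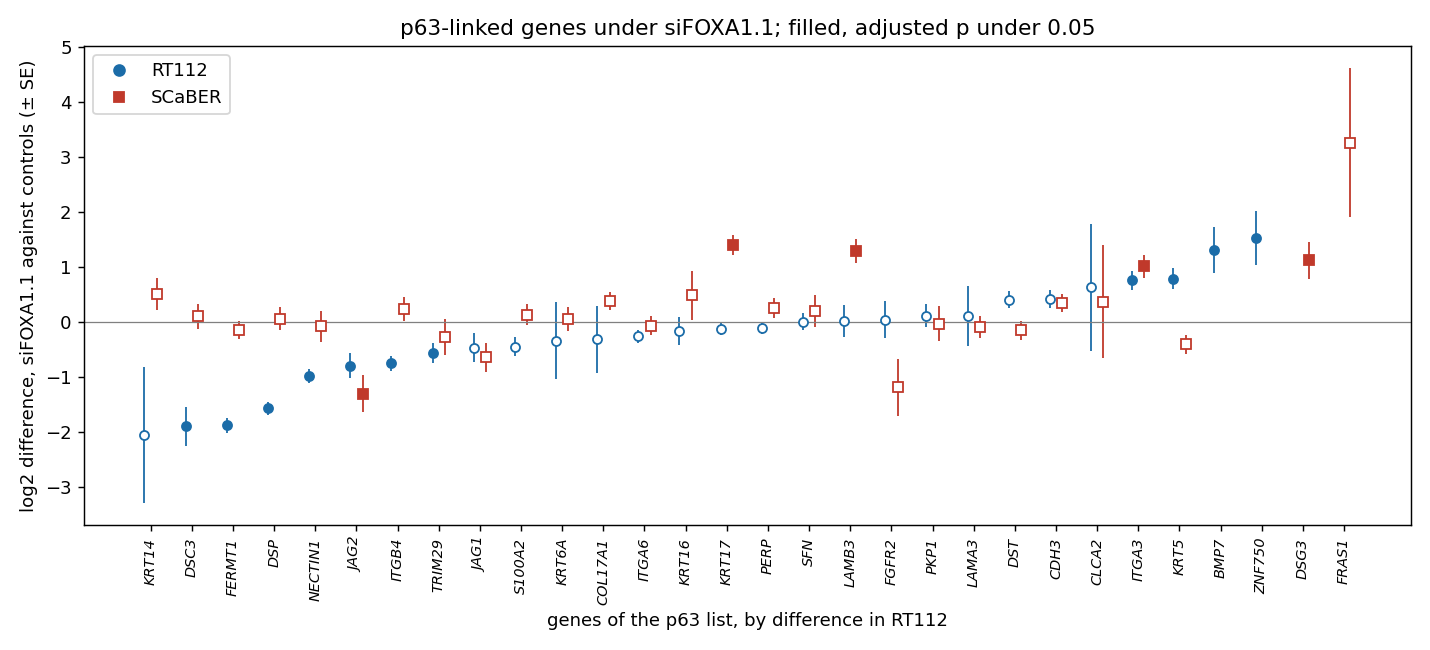
Log2 difference under siFOXA1.1 against both controls (vertical axis, ± SE) of genes of the p63 list, ordered by their value in RT112 (blue circles), with SCaBER as red squares and filled symbols for an adjusted p under 0.05. DSC3, FERMT1 and DSP were lower in RT112 (−1.90, −1.89 and −1.58) and lay near 0 in SCaBER, where KRT17 rose by 1.40.

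ZBED2 differed between the control siRNAs in opposite directions in the lines. In SCaBER it was at 57.2 and 66.7 CPM under siControl.1, 18.2 and 15.7 under siControl.2, 31.2 and 19.96 under siFOXA1.1, and 36.1 and 27.9 under siFOXA1.2. In RT112 the values were 5.79 and 7.70, 15.6 and 26.8, 11.4 and 6.63, and 14.4 and 10.5 CPM in the same order. In SCaBER both libraries of siControl.1 were therefore above all others and both of siControl.2 below all others, with the siRNAs against FOXA1 between them. In RT112 siControl.2 was above all other libraries instead. The difference between siControl.1 and siControl.2 was 1.85 on the log2 scale in SCaBER (SE 0.35, 95% interval 1.11 to 2.597, adjusted p = 0.0610) and −1.58 in RT112 (SE 0.48, −2.599 to −0.57, adjusted p = 0.109). For SOX15 the RT112 difference was 1.76 (95% interval −0.20 to 3.72, adjusted p = 0.444). None of these was called, with 0 of 5 and 0 of 4 members and 0.0672% and 2.36% of genes. In each line 1 member, ZBED2, had an unadjusted p under 0.05. With batch as a replicate block the SCaBER difference was called (1.88, adjusted p = 0.0208), as it was with DESeq2 (1.86, adjusted p = 0.00127), and it was 1.66 within batch 1 and 2.09 within batch 2. In RT112 it was −1.43 and −1.80. The groups did not overlap for 3 of 5 members in SCaBER (38.3% of genes) and 3 of 4 in RT112 (46.7%), ZBED2, KLF7 and SOX15 in each line.

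The difference between the lines in the contrast of the control siRNAs, a test added after these values had been seen, was −3.46 for ZBED2 (SE 0.57, adjusted p = 0.0262). It was 1 of 11 genes called out of 13701, or 0.0803%. KRT6A, a basal keratin, was another (−2.98, adjusted p = 0.0207). The ZBED2 call was lost with limma on log2(TPM + 1) (adjusted p = 0.115) and without any 1 of 6 libraries (adjusted p 0.0801 to 0.146). In RT112 these were both of siControl.1 and siControl.2 replicate 2, and in SCaBER siControl.1 replicate 2 and both of siControl.2.

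Against both controls together, ZBED2 differed by −0.27 (95% interval −1.15 to 0.60) under siFOXA1.1 and 0.08 (−0.77 to 0.93) under siFOXA1.2 in RT112. In SCaBER the differences were −0.30 (−0.94 to 0.33) and 0.00 (−0.55 to 0.55). These values depended on the control chosen. With siControl.1 alone, siFOXA1.1 in SCaBER gave −1.23 (adjusted p = 0.0451), whereas with siControl.2 alone it gave 0.62 (adjusted p = 0.341). In RT112 the same comparison gave 0.52 against siControl.1 and −1.07 against siControl.2, neither called. The lines differed by −1.498 under the controls (SE 0.51, adjusted p = 0.0262), but their 4 libraries overlapped, and the call was lost when any 1 of the 4 siControl.1 libraries was left out (−1.31 to −1.15, adjusted p 0.0689 to 0.0954). The ratio was −1.82 between libraries numbered replicate 1 and −1.25 between those numbered replicate 2. CD96, which overlaps ZBED2 in the annotation, had 0 to 13 counts.

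Of 10 other factors named for basal or squamous cells, 9 were tested between the lines and 8 were called, or 88.9% against 43.4% of all genes, 7 of them lower in RT112. Among them were HMGA2 (−5.65), FOSL1 (−4.85), an AP-1 subunit, and SOX2, which was below the limit of detection in all RT112 libraries and at 4.99 to 20.1 CPM in the SCaBER controls. For the p63-linked genes 26 of 30, or 86.7%, were called, 21 of them lower in RT112, with KRT6A at −7.43 and KRT14 at −7.41. DSG3, at 0 in all RT112 controls, was at least 28.7-fold higher in SCaBER. Both lists were chosen with earlier results of these data known, so their shares are descriptions only. The p63 list also holds KRT5, KRT6A, KRT14, KRT16 and DSG3, which served above as basal markers. TP63 itself was not called between the lines, and neither was KLF7. In RT112 siFOXA1.1 called 2 of 8 of the other factors, PITX1 (−0.83) and TFAP2C (0.48), a smaller share than the 32.6% of all genes. Only 1 was called without siControl.2 replicate 1 or without either siFOXA1.1 library, and 0 with siControl.1 alone as the control. In the same line siFOXA1.2 called 1, HMGA2 (2.08, adjusted p = 0.0257). The HMGA2 call was lost without any 1 of the 4 control libraries or siFOXA1.2 replicate 2. In SCaBER 0 of 9 were called under siFOXA1.1 with edgeR, 3 with DESeq2, 3 with batch as a replicate block and 4 with no filter beyond 1 count. Without siControl.1 replicate 1 or either siFOXA1.1 library, 2 were.

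Of 37 relatives of the members, from the same gene families, 20 were tested in RT112, and siFOXA1.1 called 7, or 35.0% against 32.6% of all genes. Among them KLF5 fell (−1.65) and SOX9 rose (1.55). SOX21, also called, was at 0.439 and 0 CPM under siFOXA1.1, at or below the limit of detection, and at 1.06 to 21.1 CPM under the controls. KLF7 and SOX15 were not called. SOX9 also rose under siFOXA1.2 (1.29, adjusted p = 0.00251), the only relative called there, where DESeq2 called 3 and edgeR without siFOXA1.2 replicate 1 called 0. Between the control siRNAs in RT112, edgeR called 2 of the 20, beside 2.36% of all genes. They were SOX9 (−1.09, adjusted p = 0.0353) and SOX4 (−0.62), both lower under siControl.1. In SCaBER 0 of 18 were called under siFOXA1.2 with edgeR. Between the lines 9 of 19 were called, a share of 47.4% near the 43.4% of all genes, among them KLF4 (−3.33) and SOX4 (3.03).

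The genes whose pattern was most like that of each member were sought by Pearson's r over the 16 libraries, on log2 CPM centred within each line, among 11203 genes with a mean of at least 20 counts. They were NIFK (0.91), AFAP1L2 (0.91) and NME4 (0.90) for TP63, and SAGE1 (0.93), SIDT2 (0.85) and CBX8 (0.85) for BNC1, whose values vary in SCaBER only. For ZBED2 they were RGS20 (0.84), CRLF3 (0.79) and ZNF414 (0.78). For KLF7 they were NUP54 (0.79), TMEM170A (0.78) and FOXJ3 (0.76), and for SOX15 FTSJ1 (0.77), MON1A (0.77) and ISOC2 (0.74). With a prior count of 0.5 in place of 2, NME4 (0.93) led for TP63 and LINC00346 (0.80) for SOX15. These are descriptions, since the libraries share siRNAs and batches and the genes were picked as the highest of many. Among the members themselves r ranged from −0.41 (ZBED2 and SOX15) to 0.57 (KLF7 and SOX15), and TP63 had 0.24 with ZBED2 and 0.08 with BNC1.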

How the data were processed

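The authors deposited raw counts per gene and TPM values for 16 libraries. Per the file headers and labels, reads were trimmed with TrimGalore 0.6.2 (minimum quality 20) and aligned to hg38 with STAR 2.6.1a, which counted them on GENCODE 29. In the published methods the build is instead given as hg19, and the siRNA as 10 ng. Counts of 3′ reads carry no molecular identifiers, so the floor of 3 counts covers counting error only.

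Counts were fitted with edgeR 4.0.16 in R 4.3.3 (TMM, filterByExpr, quasi-likelihood F test), with Benjamini-Hochberg adjustment over all genes tested and a threshold of 0.05. Each line was fitted with 1 mean per siRNA. The line difference used the siControl libraries, and the interactions all libraries. Only the RT112 fit by siRNA was tested on simulated counts, for siFOXA1.1 against controls, and the other fits were not tested in this way. The members and gene lists were chosen with earlier results of these data known. Named genes were all members, FOXA1, up to 3 called genes with the largest difference per list and comparison, the 3 genes most like each member and genes overlapping a member. Other genes called in the p63 list under the siRNAs against FOXA1 were named after their values were seen. The labels call the replicate number an experiment batch, so equal numbers were taken as pairs in the replicate block and in the ratios within batches. The main fits held no batch term, so their p-values are unpaired. Some genes of the lists are counted but not reported here. Deviations of same-numbered libraries correlated by −0.016 to 0.006 in RT112 and 0.006 to 0.16 in SCaBER. No 2 libraries were identical. Alternatives were DESeq2 1.42.0, limma 3.58.1, other scalings and filters, the block, and leaving out each library.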

Additional observations from a re-analysis of the deposited data

Results flagged for a closer look

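For TP63 the response to siFOXA1.1 differed between the lines by −2.56 on the log2 scale (adjusted p = 0.0320), as did those of DSC3 (−2.02, adjusted p = 0.00446), FERMT1 (−1.75, 0.000120), DSP (−1.65, 0.00168) and KLF3 (−0.97, 0.0170), all by edgeR's interaction test. DSC3, FERMT1 and DSP were named as the 3 called genes of the p63 list with the largest difference. Their number among these 5 genes was therefore set by the naming rule. For ZBED2 the difference between the control siRNAs differed between the lines by −3.46 (adjusted p = 0.0262), in an edgeR test added after its values had been seen. The calls of TP63 and ZBED2 were each lost with limma on log2(TPM + 1) and when some single libraries were left out.

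In SCaBER 1 library stood far from the other 3 treated with an siRNA against FOXA1 for each of 2 members. BNC1 was at 16.7 CPM in siFOXA1.1 replicate 1 and at 24.99 to 25.03 CPM in the others. KLF7 was at 41.2 CPM in siFOXA1.1 replicate 2 and at 28.7 to 30.7 CPM in the others. Of 22 groups of 4 libraries examined in this way, chance alone flags about 5%.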

How the results depend on the processing

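The fall of TP63 under siFOXA1.1 in RT112 and its difference from siFOXA1.2 kept their direction and call under every alternative run and without each library (−2.73 to −2.26 and −3.26 to −2.58), as did the line difference of SOX15 (−4.58 to −3.43). Over the other alternatives TP63 ranged from −2.75 to −1.56 under siFOXA1.1 and from −3.07 to −1.89 between the siRNAs, with the smallest sizes from limma on log2(TPM + 1), which understates changes of low values. A group left with 1 library is assumed to vary like the others. The cause of the changes below was not tested. Counts of 13 to 15 limit the precision of TP63 under siFOXA1.1.

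The number of members called rose to 1 with siControl.1 alone for siFOXA1.1 in SCaBER and, for the control siRNAs in SCaBER, with DESeq2, without the filter and with the replicate block. It fell to 0 with limma for both interactions, where TP63 was at −1.56 and ZBED2 at −3.37. Leaving out 1 library gave 0 to 1 for these interactions and for the control siRNAs in each line, and 2 to 3 between the lines. The RT112 control difference of ZBED2 was called without siFOXA1.1 replicate 2 (adjusted p = 0.0431), and that in SCaBER without either siFOXA1.1 library (0.00867 and 0.00812), over ranges of −1.92 to −1.15 and 1.75 to 1.97. The ZBED2 line difference ranged from −2.0002 to −1.15, and the interactions of TP63 and ZBED2 from −2.76 to −2.30 and −3.78 to −3.03.

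With the replicate block, the batch pairing changed no other call of a member. It moved the genes called between the control siRNAs in SCaBER from 8 to 35, in the control siRNA interaction from 11 to 31 and in the siFOXA1.2 interaction from 6 to 12, and, in SCaBER, from 1 to 5 for the p63 list between siFOXA1.1 and siFOXA1.2 and from 0 to 3 for the other basal factors under siFOXA1.1. It turned 2 uncalled values, SOX15 under siFOXA1.2 in RT112 (0.12) and ZBED2 under siFOXA1.2 in SCaBER (−0.014).

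Other reversals were of uncalled values. With siControl.1 alone, siFOXA1.1 gave 0.52 for ZBED2 in RT112 and −0.082 for TP63, −0.24 for BNC1 and −0.079 for KLF7 in SCaBER, where siFOXA1.2 gave −0.93 for ZBED2. With siControl.2 alone, SOX15 was at 0.43 under siFOXA1.1 and 0.80 under siFOXA1.2 in RT112, ZBED2 at −0.71 under siFOXA1.2 in RT112 and 0.62 under siFOXA1.1 in SCaBER, and KLF7 at 0.18 under siFOXA1.2 in SCaBER. With limma, KLF7 was at −0.049 under siFOXA1.1 in RT112 and −0.33 between the lines, SOX15 at 0.053 under siFOXA1.2 in RT112, TP63 at −0.0055 under siFOXA1.1 in SCaBER and ZBED2 at −0.043 under siFOXA1.2 in SCaBER. With library totals alone, the same SCaBER values of TP63 and ZBED2 were −0.014 and −0.019.

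Leaving out 1 library also turned uncalled values. In RT112 the ranges were −0.69 to 0.037 for ZBED2 and −0.83 to 0.35 for SOX15 under siFOXA1.1, −0.17 to 0.29 and −0.45 to 0.72 under siFOXA1.2, −0.44 to 0.15 for KLF7 between the siRNAs against FOXA1, and −0.94 to 0.091 for TP63 between the controls. In SCaBER they were −0.089 to 0.15 for TP63, −0.22 to 0.37 for BNC1 and −0.70 to 0.0197 for ZBED2 under siFOXA1.1, −0.20 to 0.18 for ZBED2 under siFOXA1.2 and −0.70 to 0.0189 between the siRNAs against FOXA1, and −0.048 to 0.42 for TP63 and −0.032 to 1.07 for BNC1 between the controls. KLF7 ranged from −0.13 to 0.15 between the lines.

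Over all genes, the other alternatives moved the counts called from 245 to between 72 and 383 for siFOXA1.2 in RT112, from 283 to between 78 and 449 for its control siRNAs, from 1102 to between 707 and 1442 for siFOXA1.1 in SCaBER, from 5 to between 1 and 42 for siFOXA1.2 there, from 577 to between 276 and 885 between these siRNAs, from 8 to between 0 and 91 for the SCaBER controls, from 13 to between 0 and 179 and 1 to between 0 and 213 for the pooled siRNAs, and from 430 to between 425 and 777, 6 to between 0 and 66 and 11 to between 0 and 112 for the interactions. Leaving out 1 library gave 64 to 380, 62 to 454, 526 to 1371, 0 to 21, 108 to 1036, 0 to 60, 0 to 4, 0 to 3, 239 to 733, 0 to 11 and 0 to 32 in the same order. The counts were 3291 to 3787 for siFOXA1.1 in RT112 and 4962 to 5565 between the lines.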
